A study of Rattus norvegicus with 12 samples.

Results

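The receptor system on which phenylephrine (PE) acts was followed through 9 genes in neonatal rat ventricular myocytes (NRVMs). The genes were Adra1a, Adra1b, Adra1d, Adrb1, Gnaq, Plcb1, Rgs2, Rgs4 and Rcan1. They were taken by gene symbol from the count and FPKM tables, and all 9 were found, each in 1 row, among 18483 genes. RNA-seq had been done on 4 groups with 3 biological replicates each, 12 samples in all. The siNeg group received a control siRNA and no PE, and the siNeg PE group received the same siRNA and then PE for 36 h. The siSlc39a2 group received an siRNA against the zinc importer gene Slc39a2 and no PE, and the siSlc39a2 PE group received both. By the labels PE was added 12 h after transfection, and the culture methods of the study give a longer treatment. All cells came from Sprague-Dawley neonates, were enriched for myocytes on a Percoll gradient and were then kept in medium with insulin, transferrin and selenium. The knockdown rested on a single siRNA sequence, so effects of that sequence on other transcripts cannot be told apart from effects of the loss of Slc39a2.

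Alpha1-adrenergic receptors couple to the G protein Gq, whose alpha subunit is the product of Gnaq. Gq activates phospholipase C beta, which releases inositol trisphosphate and diacylglycerol and thereby raises calcium and activates protein kinase C. In cardiac myocytes this route drives hypertrophic growth, in part through the calcium-dependent phosphatase calcineurin and its target NFAT. RGS proteins such as the products of Rgs2 and Rgs4 end the signal by speeding GTP hydrolysis on the alpha subunit. The product of Rcan1 inhibits calcineurin, and Rcan1 is itself induced by calcineurin and NFAT. The beta1 receptor, encoded by Adrb1, couples to Gs and cAMP and is not the main target of PE.

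Within this system, 2 of the 3 alpha1 receptor genes (Adra1b and Adra1d) fell under PE while the third (Adra1a) rose, and the feedback genes Rgs2 and Rcan1 rose. Slc39a2 knockdown moved Adra1b, Adra1d, Gnaq, Rgs2 and Rcan1 in the same directions as PE did. The siSlc39a2 PE cells held the extreme level of each of these genes. PE against siNeg and the knockdown against siNeg share the same siNeg samples. The largest share of alpha1 receptor transcripts belonged to Adra1b in every sample, and the share of Adra1a was highest in siSlc39a2 PE. Plcb1 and Rgs4 passed the test in no comparison.

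The depth was 24065539 to 28603854 expected counts per sample, and 13967 genes passed the filter on low counts, all 9 members among them. Slc39a2 was at 50 to 59 counts in the siNeg samples, against 2 to 21 in the siSlc39a2 samples, so the target was lower in every knockdown sample. With PE it was at 95 to 198 counts in siNeg cells and 25 to 38 in siSlc39a2 cells, and PE raised it in both (log2 FC of 1.47 and 1.49, SE 0.36 and 0.48, edgeR adjusted p = 0.00541 and 0.0172). Nppa and Nppb, the natriuretic peptide genes that mark hypertrophy, rose under PE in siNeg cells, with log2 fold changes (log2 FC) of 4.63 for Nppa and 5.19 for Nppb (standard error, SE, 0.16 and 0.17, edgeR adjusted p = 8.51e-10 for both). The 8 cardiomyocyte markers (Tnnt2, Tnni3, Myh6, Actn2, Ryr2, Pln, Myl2 and Myl3) were all measured above 0, and their summed level was 35000 to 35300 CPM (counts scaled to the normalized library size) in siNeg, with 26100 to 28200 after PE, 25100 to 26100 after the knockdown and 20600 to 22400 after both. Of these 8, 1 was higher and 4 lower with PE in siNeg cells, and 4 were lower with the knockdown, both without and with PE. Most of the fall in the sum was in Myh6, the alpha myosin heavy chain gene, at 15900 ± 1900 CPM (SD, n = 3) in siNeg and 8200 ± 270 after PE, 7410 ± 501 after the knockdown and 3670 ± 186 after both. Without Myh6, chosen after its values were seen, the sum of the other 7 overlapped between siNeg (17700 to 21300 CPM) and each other group (17100 to 20200 CPM over these). The summed level of 8 fibroblast markers was 13900 to 18300 CPM in siNeg, with 9170 to 11800 after PE, 5340 to 5640 after the knockdown and 3580 to 4950 after both. Of these fibroblast genes, 6 of 8 were lower and 1 was higher with the knockdown, both without and with PE. With PE in siNeg cells 2 were higher and 4 lower. The collagen genes Col1a1, Col3a1 and Col1a2 held most of the fibroblast sum. In these bulk samples, fewer cells of a type and less RNA per cell cannot be told apart. Smooth muscle and pericyte markers summed to 2600 to 2720 CPM in siNeg, with 1750 to 2160 after PE, 1100 to 1170 after the knockdown and 1730 to 1850 after both, and 7 of 8 were lower with the knockdown without PE. Macrophage markers summed to 17.8 to 21.3 CPM in siNeg, with 10.6 to 12.4 after PE, 12.1 to 13 after the knockdown and 7.38 to 8.73 after both. Endothelial markers summed to at most 27.3 CPM in any sample. The part of these cell types in the results was not tested.

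The DNA before the start sites of the most strongly changed members is shown here because each of these genes moved the same way under PE and under the knockdown. Gnaq also moved the same way under both, with smaller changes under PE, and its window is not printed. The sequences are the 250 bases before the start, 5′ to 3′ on the gene's strand, from RefSeq on the build GRCr8, which is a later build than the one named for the deposited data. Of the 9 members, 8 were matched by gene ID, and Adra1a was not. Capitals mark the cAMP response element TGACGTCA, its half-site TGACG, the AP-1 motif TGACTCA and the NFAT core GGAAA, each searched on both strands, so that a match on the opposite strand appears as its reverse complement. The half-site lies within the full element, which therefore counts under both.
Rcan1 (chr11:45118237-45118486, minus strand): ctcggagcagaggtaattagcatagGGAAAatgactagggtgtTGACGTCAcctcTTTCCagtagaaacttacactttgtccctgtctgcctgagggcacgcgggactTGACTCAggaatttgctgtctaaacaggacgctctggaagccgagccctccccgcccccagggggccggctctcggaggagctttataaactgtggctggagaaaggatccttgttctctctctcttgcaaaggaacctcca
Rgs2 (chr13:58352667-58352916, minus strand): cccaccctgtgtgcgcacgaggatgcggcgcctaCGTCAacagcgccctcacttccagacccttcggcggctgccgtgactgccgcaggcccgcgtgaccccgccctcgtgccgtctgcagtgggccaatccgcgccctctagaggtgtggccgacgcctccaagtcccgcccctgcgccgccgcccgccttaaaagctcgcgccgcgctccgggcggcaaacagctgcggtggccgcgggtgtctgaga
Adra1b (chr10:28814348-28814597, minus strand): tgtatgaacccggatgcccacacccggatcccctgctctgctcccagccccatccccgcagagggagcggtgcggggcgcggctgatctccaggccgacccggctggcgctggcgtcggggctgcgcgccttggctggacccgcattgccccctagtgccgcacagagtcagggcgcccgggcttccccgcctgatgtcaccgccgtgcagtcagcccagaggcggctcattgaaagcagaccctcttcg
Adra1d (chr3:139262332-139262581, minus strand): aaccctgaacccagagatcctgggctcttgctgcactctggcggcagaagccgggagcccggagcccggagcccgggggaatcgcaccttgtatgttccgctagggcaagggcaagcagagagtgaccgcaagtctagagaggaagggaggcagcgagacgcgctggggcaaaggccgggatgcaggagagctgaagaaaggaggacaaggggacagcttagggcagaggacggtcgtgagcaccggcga

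The Rcan1 window lies before a start site 69.8 kb inside the annotated gene, so it belongs to one of several transcripts that the gene-level counts do not separate. It holds the full cAMP response element, whose first base is at -207 from the start, an AP-1 motif at -142 and the NFAT core at -225 and -195. Of 33469 windows of the same length, 1.59% hold the full element, 4.05% the AP-1 motif and 56.9% the NFAT core, so a match to the short NFAT core is common. The Rgs2 window holds the half-site, which 18.2% of all windows hold, with its first base at -216. Of the windows not printed, those of Adrb1 (-88), Gnaq (-28) and Rgs4 (-153) hold the half-site too. PE lowered Adrb1 and raised Gnaq in siNeg cells, and Rgs4 did not pass. The NFAT core is also in the windows of Adrb1 (-245) and Gnaq (-127). None of these motifs is in the windows of Adra1b, Adra1d and Plcb1. No window of the 8 members holds a CArG box, the motif bound by SRF, which 1.5% of all windows hold. The motifs were chosen after the sequences were seen, and a match is a run of letters that was not tested for binding.

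Levels between genes were compared in FPKM, which accounts for length. In siNeg cells Adra1b was the most abundant of the 9, at 76.3 ± 6.25 FPKM (SD, n = 3). It was followed by Rcan1 at 46.4 ± 0.197, Adrb1 at 44.1 ± 1.49 and Adra1d at 27.2 ± 1.23 FPKM. Rgs2 was at 9.76 ± 0.546, Adra1a at 6.67 ± 1.15 and Gnaq at 4.51 ± 0.278 FPKM. Rgs4 was at 1.21 ± 0.17 and Plcb1 at 0.14 ± 0.0173 FPKM, the lowest of the 9 in every group. No neighbours in this order overlapped in siNeg. In siSlc39a2 PE the order was headed by Rcan1 at 169 ± 10.5 and Rgs2 at 45.5 ± 5.66 FPKM, and Adra1b stood at 19.1 ± 1.92 FPKM, below Adrb1 at 24.8 ± 2.02 FPKM. The samples of Adra1b and Adrb1 overlapped in siNeg PE, those of Adra1a and Gnaq in siSlc39a2, and those of Gnaq and Adra1d in siSlc39a2 PE, so these neighbours were not separated.

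**Figure D1:**
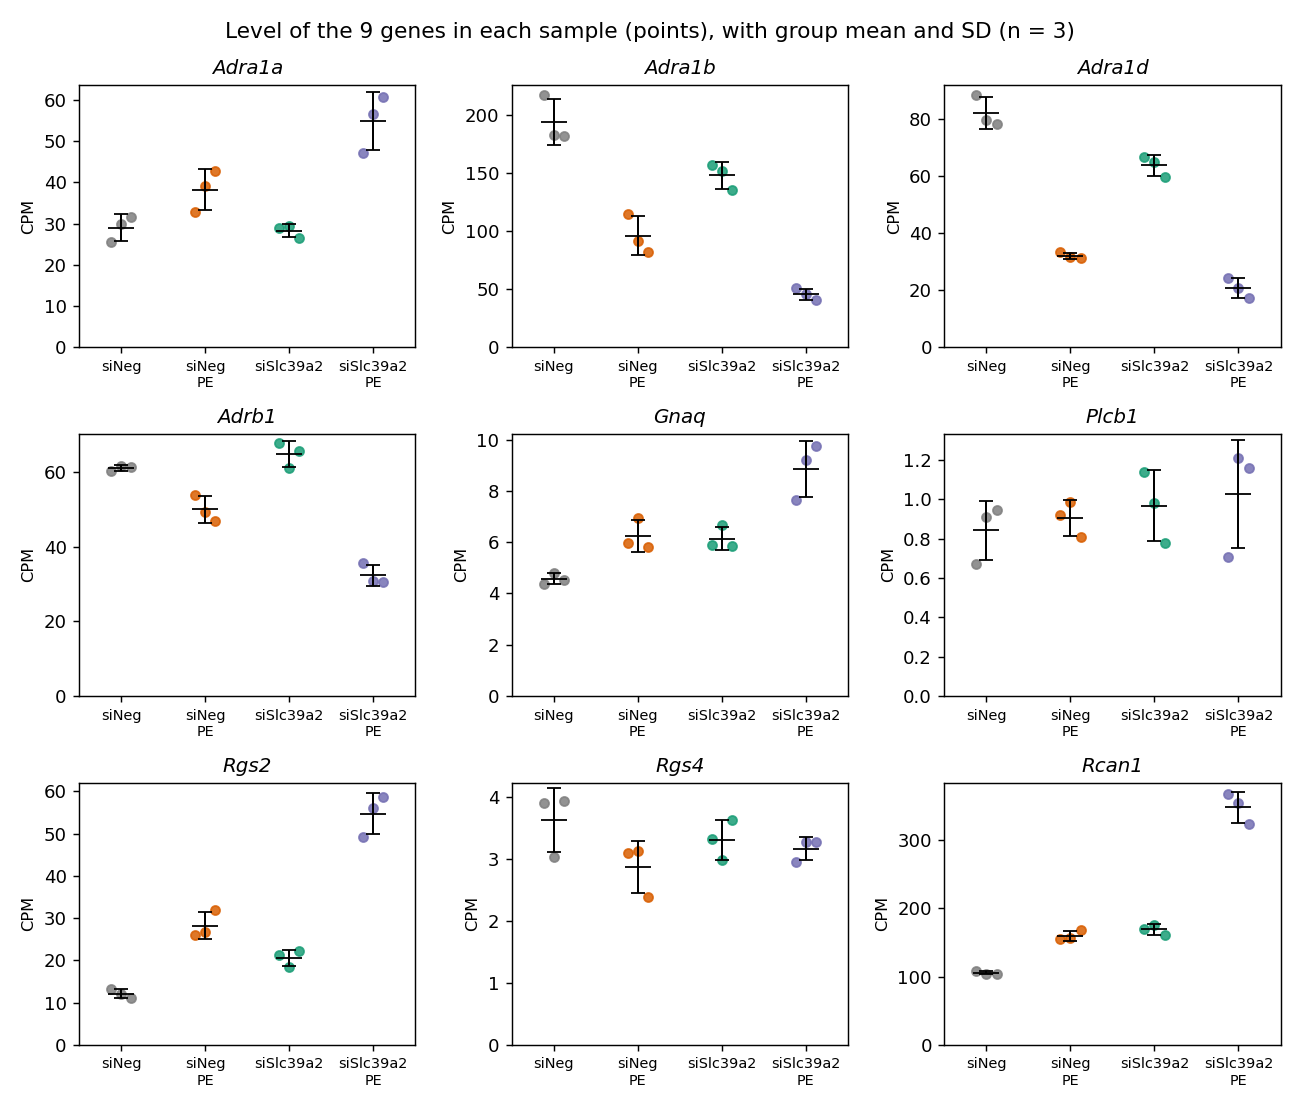
Level of each of the 9 genes in CPM (vertical axis, from 0, a separate scale for each gene) in the 4 groups (horizontal axis). Points are single samples, and the bars show the mean and SD of 3. Adra1b falls from 194 CPM in siNeg to 45.6 CPM in siSlc39a2 PE and Rcan1 rises from 106 to 348 CPM, while the samples of Plcb1 and Rgs4 overlap in all groups compared.

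Whether PE changed the receptor system in control cells was asked first. Of the 9 members, 7 passed the test in siNeg PE against siNeg, 4 higher and 3 lower, where 49.7% of all genes tested passed. At a log2 fold change above 1 as well, 3 members passed, against 6.6% of all genes. In siSlc39a2 PE against siSlc39a2 the same test was passed by 7 members, 4 higher and 3 lower, against 60% of all genes, and by 5 with the fold threshold, against 10.5%. In siSlc39a2 against siNeg it was passed by 5 members, 3 higher and 2 lower, against 49.2% of all genes (22.8% higher and 26.4% lower), and by none with the fold threshold, against 9.78%. At an unadjusted p under 0.05 this comparison also gave 5 members, as did DESeq2 and limma on filtered FPKM, while limma without the filter gave 4. With the knockdown in PE-treated cells 7 members passed, 4 higher and 3 lower, against 57.3% of all genes, and 2 passed with the fold threshold, against 11.6%. The members' counts are therefore read against 49.2% to 60% of all genes, and the values below give the sizes of the changes.

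The alpha1B receptor gene Adra1b had the largest mean FPKM among the receptor members in every group but siSlc39a2 PE, where Adrb1 was higher. It was at 217, 183 and 182 CPM in the siNeg samples and at 115, 91.6 and 81.6 CPM in siNeg PE. In siSlc39a2 it was at 157, 152 and 135 CPM, and in siSlc39a2 PE at 50.5, 45.5 and 40.9 CPM. No 2 groups overlapped. PE lowered Adra1b by a log2 FC of -1.02 in siNeg cells (SE 0.12, edgeR adjusted p = 4.01e-05) and of -1.7 in siSlc39a2 cells (SE 0.13, adjusted p = 3.77e-07). The knockdown lowered it by -0.39 without PE (SE 0.12, edgeR adjusted p = 0.0164) and by -1.07 with PE (SE 0.12, adjusted p = 1.4e-05). The fall without PE no longer passed when siNeg replicate 1 (-0.3, adjusted p = 0.072) or siSlc39a2 replicate 3 (-0.28, adjusted p = 0.115) was left out.

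The alpha1D receptor gene Adra1d had the largest PE response of the receptors in control cells. It was at 88.5, 79.7 and 78.2 CPM in siNeg and at 33.3, 31.6 and 31.4 CPM in siNeg PE. It was at 66.7, 65 and 59.7 CPM in siSlc39a2 and at 24.2, 20.6 and 17.3 CPM in siSlc39a2 PE. The 4 groups were again apart in every sample, with siNeg the highest and siSlc39a2 PE the lowest. The log2 fold change with PE was -1.35 in siNeg cells (SE 0.10, edgeR adjusted p = 1.07e-06) and -1.62 in siSlc39a2 cells (SE 0.11, adjusted p = 1.43e-07). With the knockdown it was -0.36 without PE (SE 0.10, adjusted p = 0.00921) and -0.63 with PE (SE 0.11, adjusted p = 2.48e-04). The first of these was -0.27 (adjusted p = 0.0785) without siSlc39a2 replicate 3, the sample with the lowest depth.

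The alpha1A receptor gene Adra1a moved the other way. It was at 25.4, 30 and 31.7 CPM in siNeg and at 32.9, 39 and 42.7 CPM in siNeg PE, so the groups lay close but did not overlap. It was at 28.9, 29.4 and 26.4 CPM in siSlc39a2, within the range of siNeg, and at 47.1, 56.7 and 60.7 CPM in siSlc39a2 PE, above every other sample. PE raised it by a log2 FC of 0.4 in siNeg cells (SE 0.12, edgeR adjusted p = 0.0155) and of 0.96 in siSlc39a2 cells (SE 0.12, adjusted p = 3.13e-05). The rise in siNeg cells did not pass without siNeg replicate 1 (0.31, adjusted p = 0.0659) or without siNeg PE replicate 3 (0.31, adjusted p = 0.0734). The knockdown gave -0.04 without PE (95% interval -0.30 to 0.22, edgeR adjusted p = 0.805) and 0.52 with PE (SE 0.12, adjusted p = 0.00224).

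These opposite movements changed the make-up of the alpha1 receptor transcripts. The FPKM of the 3 subtypes summed to 110 ± 6.39 (SD, n = 3) in siNeg, 60.6 ± 5.07 after PE, 94.8 ± 5.45 after the knockdown and 40 ± 1.36 after both. Of this sum, Adra1a held 6.11% ± 1.34 (SD, n = 3) in siNeg, 15.9% ± 3.88 after PE, 7.61% ± 0.233 after the knockdown and 34.2% ± 5.76 after both. Adra1b held 69.2% ± 1.61, 65.5% ± 5.08, 67.8% ± 0.5 and 47.6% ± 3.35 in the same order, and Adra1d held 24.7% ± 0.396, 18.6% ± 1.2, 24.6% ± 0.331 and 18.2% ± 2.41. The share of Adra1a was 28.2% to 39.6% in the siSlc39a2 PE samples and at most 19.6% in any other. Shares are of transcripts and were described without a test. The fibroblast, macrophage and full cardiomyocyte marker sums given above were also highest in siNeg and lowest in siSlc39a2 PE. Without Myh6, left out after its values were seen, the cardiomyocyte sum overlapped between these 2 groups. Collagen genes held most of the fibroblast sum, with Col1a1 at 10800 CPM in siNeg and 2380 in siSlc39a2 PE. Other fibroblast markers had another order, such as Dcn at 60.5 CPM in siNeg, 81.9 after PE, 34.7 after the knockdown and 48.1 after both. The part of these cell types in the receptor values was not tested.

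**Figure D2:**
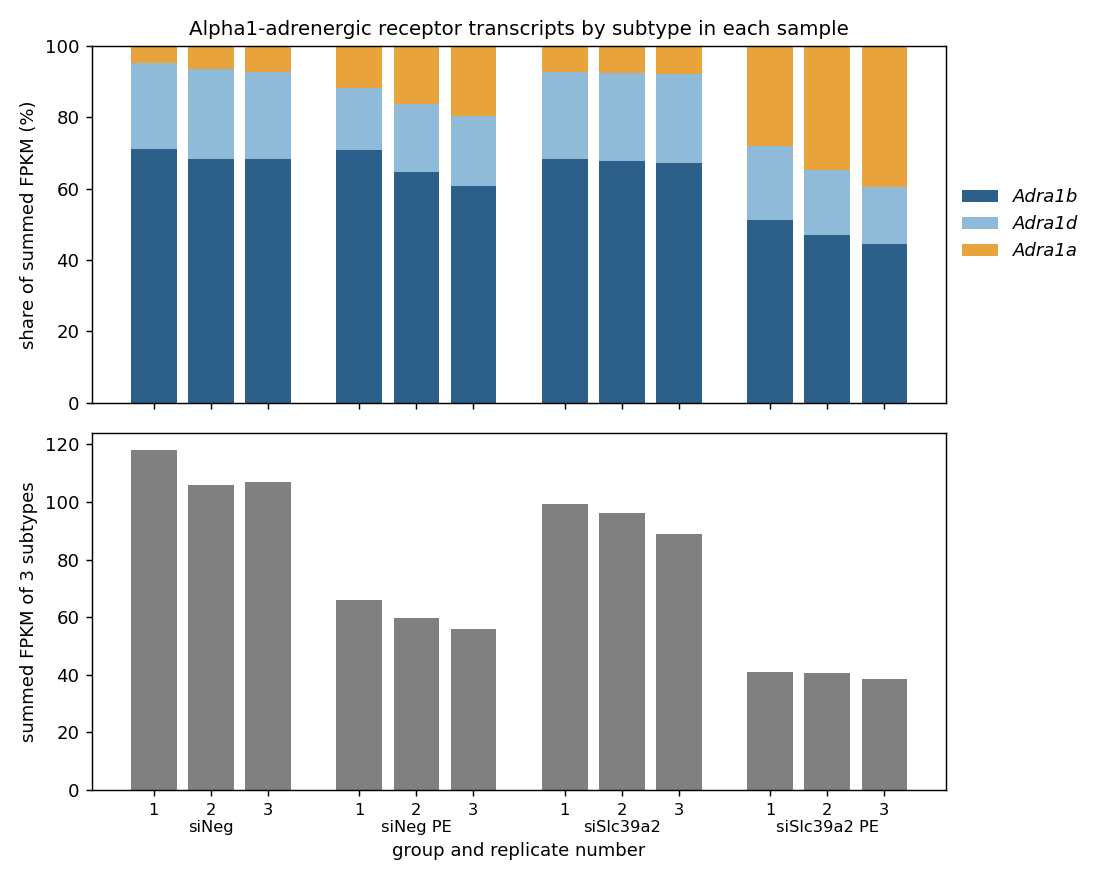
Upper panel, share of Adra1b, Adra1d and Adra1a in their summed FPKM (%), and lower panel, that sum in FPKM, for each of the 12 samples ordered by group and replicate number. The share of Adra1a is 4.6% to 7.16% in siNeg and 28.2% to 39.6% in siSlc39a2 PE, while the sum goes from 106 to 118 FPKM down to 38.5 to 41 FPKM.

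Adrb1 encodes the beta1 receptor, the main receptor for noradrenaline in cardiac myocytes. It was at 60.3, 61.6 and 61.4 CPM in siNeg, 53.9, 49.3 and 46.9 after PE, 67.8, 61 and 65.7 after the knockdown, and 35.6, 30.8 and 30.5 after both. The siSlc39a2 PE samples were below all others, and those of siNeg and siSlc39a2 overlapped. PE lowered Adrb1 by a log2 FC of -0.29 in siNeg cells (SE 0.08, edgeR adjusted p = 0.00951) and of -1.01 in siSlc39a2 cells (SE 0.08, adjusted p = 7.3e-07). With limma on log2(FPKM + 1) the first of these was -0.18 (adjusted p = 0.0512) and no longer passed. The knockdown gave 0.09 without PE (95% interval -0.08 to 0.26, adjusted p = 0.383) and -0.63 with PE (SE 0.08, edgeR adjusted p = 3.01e-05).

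Gnaq, which encodes the alpha subunit of Gq, was covered by 111, 127 and 115 counts in siNeg, against 162, 198 and 158 after PE. After the knockdown it had 171, 197 and 150 counts without PE and 205, 267 and 268 with PE. In CPM, which corrects for depth, the group means were 4.58 ± 0.218 (SD, n = 3), 6.24 ± 0.63, 6.14 ± 0.458 and 8.87 ± 1.09 in that order. Thus siNeg was the lowest and siSlc39a2 PE the highest in every sample, while siNeg PE and siSlc39a2 lay together between them. The log2 fold change was 0.45 with PE in siNeg cells, 0.53 with PE in siSlc39a2 cells, 0.43 with the knockdown without PE and 0.51 with the knockdown with PE (SE 0.13, 0.12, 0.13 and 0.12, edgeR adjusted p = 0.012, 0.00269, 0.0148 and 0.00366). The first no longer passed without siNeg PE replicate 2 (0.36, adjusted p = 0.0585), nor the third without siSlc39a2 replicate 2 (0.36, adjusted p = 0.0596).

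Plcb1 encodes a phospholipase C beta isoform that Gq activates. It had 17, 24 and 24 counts in siNeg, 25, 28 and 22 after PE, 33, 29 and 20 after the knockdown, and 19, 35 and 32 after both. The groups overlapped throughout. Its log2 fold change with PE in siNeg cells was 0.10 (95% interval -0.48 to 0.68, edgeR adjusted p = 0.767), and with the knockdown with PE it was 0.18 (95% interval -0.38 to 0.75, adjusted p = 0.566). At these counts the intervals reach well to either side of 0, and smaller changes were not detectable. Other isoforms were more abundant per length, with Plcb3 at 10.3 FPKM and Plcb4 at 6.49 FPKM on average in siNeg against 0.14 FPKM for Plcb1.

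Rgs2, whose product acts mainly on Gq, rose in all 4 comparisons between groups. It was at 13.2, 12 and 11.1 CPM in siNeg, 26, 26.8 and 31.9 after PE, 21.2, 18.4 and 22.2 after the knockdown, and 49.3, 56.2 and 58.8 after both. No groups overlapped. PE raised it by log2 FC values of 1.23 in siNeg cells and 1.41 in siSlc39a2 cells (SE 0.11 for both, edgeR adjusted p = 4.93e-06 and 4.94e-07). The knockdown raised it by 0.77 without PE and 0.96 with PE (SE 0.11 for both, adjusted p = 1.01e-04 and 9.08e-06). All 4 rises passed in every alternative and with each sample left out in turn. In 2 of the 12 samples the expected count of Rgs2 was not whole, so a small part of its reads could belong to another gene.

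Rgs4, which encodes another RGS protein with activity on Gq and Gi, had 80 to 100 counts in siNeg, 65 to 89 after PE, 88 to 96 after the knockdown and 79 to 95 after both. All groups overlapped. Its log2 fold change with PE was -0.34 in siNeg cells (95% interval -0.69 to 0.02, edgeR adjusted p = 0.105) and -0.06 in siSlc39a2 cells (95% interval -0.42 to 0.29, adjusted p = 0.761). With limma on log2(FPKM + 1) the first was -0.26 and passed (adjusted p = 0.0317). With the knockdown it was -0.13 without PE and 0.14 with PE (adjusted p = 0.522 and 0.485).

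Rcan1, the calcineurin inhibitor gene, had the highest FPKM of the 9 in every group but siNeg. It was at 108, 104 and 104 CPM in siNeg, 155, 156 and 168 after PE, 170, 176 and 161 after the knockdown, and 367, 354 and 323 after both. The siNeg PE and siSlc39a2 samples overlapped, all of them above siNeg, and the siSlc39a2 PE samples were far above the rest. PE raised Rcan1 by log2 FC values of 0.6 in siNeg cells and 1.04 in siSlc39a2 cells (SE 0.06 for both, edgeR adjusted p = 1.68e-05 and 8.52e-08). The knockdown raised it by 0.68 without PE and 1.12 with PE (SE 0.06 for both, adjusted p = 2.32e-06 and 1.87e-08). All 4 rises passed in every alternative and with each sample left out in turn.

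Whether the knockdown acted differently with PE was tested as an interaction, the knockdown effect with PE less that without PE, which equals the PE effect in siSlc39a2 cells less that in siNeg cells. Of the 9 members, 3 passed, 1 higher and 2 lower, where 3.61% of all genes passed, 1.73% higher and 1.88% lower. None of the 3 had an interaction above 1 on the log2 scale, against 0.988% of all genes. For Adrb1 it was -0.72 (SE 0.11, edgeR adjusted p = 0.0034), for Adra1b -0.68 (SE 0.17, adjusted p = 0.0481) and for Rcan1 0.44 (SE 0.09, adjusted p = 0.0163). Adrb1 passed in all 12 fits that left out a sample. Rcan1 passed in 8, with adjusted p between 0.0531 and 0.0657 (edgeR) without siNeg PE replicate 2, siSlc39a2 PE replicate 1 or 2, or siSlc39a2 replicate 3. Adra1b passed in 4, those without siNeg replicate 1, siNeg PE replicate 3, siSlc39a2 PE replicate 1 or siSlc39a2 replicate 3, and over the other 8 its adjusted p (edgeR) lay between 0.0882 and 0.128. For Adra1a the interaction was 0.56 with an unadjusted 95% interval of 0.20 to 0.92 and did not pass over all genes (adjusted p = 0.0954). It was 0.19 for Rgs2, 0.08 for Gnaq and -0.27 for Adra1d (adjusted p = 0.625, 0.888 and 0.401), and 0.27 for Rgs4 and -0.02 for Plcb1 (adjusted p = 0.635 and 0.991). Of the 8 smooth muscle and pericyte markers, 4 had a higher interaction, with Cnn1 at 1.71, Acta2 at 1.29, Tagln at 1.25 and Cspg4 at 0.65, though Acta2 counts were not all whole. None of the fibroblast or cardiomyocyte markers passed the interaction, and the part of smooth muscle cells and pericytes in the members' values was not tested.

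**Figure D3:**
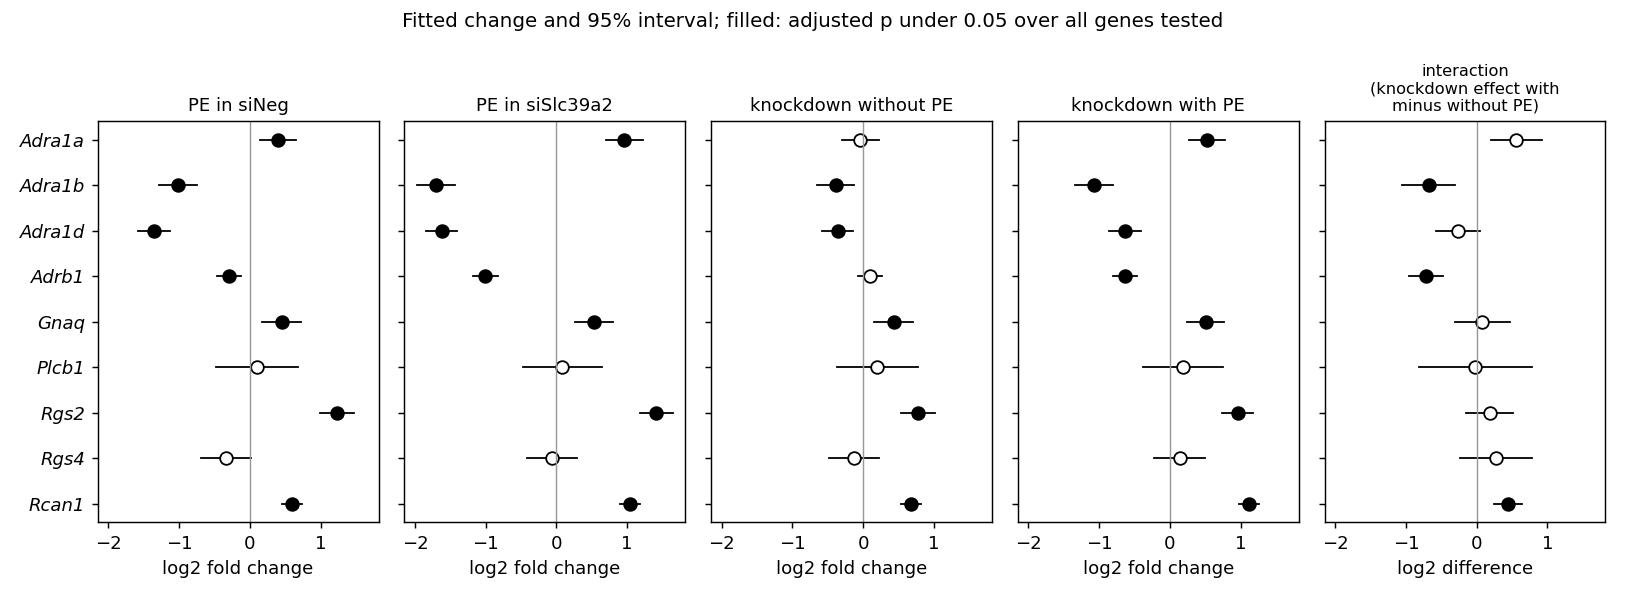
Log2 fold change (points) with its unadjusted 95% interval (lines) for the 9 genes in 4 comparisons and the interaction, on one horizontal scale. Filled points passed the adjusted p over all genes tested, 7, 7, 5, 7 and 3 of 9 from left to right. Adra1b and Adra1d lie left of 0 and Gnaq, Rgs2 and Rcan1 right of 0 in all 4 comparisons, with filled points.

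The rest of the pathway was read from hand-written lists that also hold the members. Their counts are read against the share of all genes that passed in each direction. With PE in siNeg cells 25.7% of all genes were lower and 24% higher, with the knockdown without PE 26.4% were lower and 22.8% higher, and with the knockdown with PE 28.1% were lower and 29.2% higher.

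Of 10 tested G protein alpha subunit genes, 5 were higher and 2 lower with PE in siNeg cells, with a median log2 fold change of 0.17 against -0.014 over all genes. The largest rises were those of Gnai1 (0.82), Gnai3 (0.64) and Gnao1 (0.58), which encode subunits of the Gi and Go class (SE 0.23, 0.19 and 0.07, edgeR adjusted p = 0.0114, 0.0132 and 4.98e-05). Gnai2, of the same class, fell by -0.37 (SE 0.06, edgeR adjusted p = 2.02e-04) and was named after its values were seen. In siNeg it averaged 216 FPKM, against 1.45 for Gnai1, 5.82 for Gnai3 and 25.5 for Gnao1. With the knockdown 4 were higher and 2 lower without PE, and 5 and 2 with PE. Gna13, which encodes a subunit of the G12 and G13 class, had the largest change without PE, with a log2 FC of 0.90 (SE 0.11, edgeR adjusted p = 2.77e-05). With PE the largest were those of Gnai3 (0.90, SE 0.18) and Gna13 (0.85, SE 0.11), with edgeR adjusted p = 0.0011 and 3.66e-05. The near relative of Gnaq, Gna11, was the more abundant of the pair per length, with 49.1 FPKM on average in siNeg against 4.51 FPKM for Gnaq. The ratio of counts to FPKM implies a length of 0.964 kb for Gnaq and 2.49 kb for Gna11, so the level of Gnaq per length rests on a short gene model. Gna11 fell by -0.21 on the log2 scale with PE in siNeg cells and by -0.26 with the knockdown without PE (SE 0.07 for both, edgeR adjusted p = 0.0292 and 0.00989), and it did not pass with PE in siSlc39a2 cells (-0.15, adjusted p = 0.0975). It was named after its values were seen.

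Of 7 genes for phospholipase C beta and IP3 receptors, 2 were lower and none higher with PE in siNeg cells, and the same numbers held with the knockdown without PE. Plcb3 fell in both, by log2 FC values of -0.46 and -0.38 (SE 0.08 for both, edgeR adjusted p = 4.11e-04 and 0.00102). Itpr3, an IP3 receptor gene, fell with the knockdown by -1.26 without PE and -1.19 with PE (SE 0.20 for both, edgeR adjusted p = 2.28e-04 and 3.19e-04). Among 18 genes of the diacylglycerol and protein kinase C branch, 5 were higher and 4 lower with PE. With the knockdown 2 of these 18 were higher and 6 lower without PE, and 3 and 7 with PE.

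Among the 11 tested RGS genes, Rgs2 was the only one higher with PE in siNeg cells, and 4 were lower, with a median log2 fold change of -0.06. Rgs16, which also acts on Gi and Gq, fell with PE from 2.15 ± 0.291 to 0.861 ± 0.228 CPM (SD, n = 3), a log2 FC of -1.32 (SE 0.21, edgeR adjusted p = 3.7e-04). The knockdown raised Rgs16 by 2.01 without PE and 1.43 with PE (SE 0.18 and 0.21, adjusted p = 1.67e-06 and 1.05e-04), so PE and the knockdown moved it in opposite directions. With the knockdown 4 RGS genes were higher and 3 lower, both without and with PE. Rgs10 fell by -0.85 without PE and -0.52 with PE (SE 0.10 and 0.11, edgeR adjusted p = 2.43e-05 and 0.00109). Rgs12 fell by -0.72 without PE and -0.87 with PE (SE 0.09 for both, edgeR adjusted p = 2.82e-05 and 4.81e-06).

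Of the 7 receptor kinase and arrestin genes in the tables, 2 were higher and 1 lower with PE in siNeg cells. Grk5, which encodes a kinase that desensitizes adrenergic receptors, went up from 84.2 ± 3.98 to 144 ± 9.28 CPM (SD, n = 3) with a log2 FC of 0.77 (SE 0.07, edgeR adjusted p = 5.07e-06). Its interaction was -0.39 (SE 0.10, edgeR adjusted p = 0.0475), close to the threshold, and was not checked with samples left out. The knockdown raised Grk5 by 0.53 without PE, and with PE it gave 0.14 and did not pass (SE 0.07, edgeR adjusted p = 0.0983). In siSlc39a2 cells PE raised Grk5 by 0.38 (SE 0.07, edgeR adjusted p = 5.32e-04). Arrb1, an arrestin gene, fell with the knockdown by -0.60 without PE and -0.73 with PE (SE 0.08 for both, edgeR adjusted p = 6.85e-05 and 1.35e-05).

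Of 14 calcineurin and NFAT genes, 5 were higher and 1 lower with PE in siNeg cells, with a median log2 fold change of 0.27. Myoz2, which encodes a calcineurin-binding protein of the Z-disc, rose by 1.14 (SE 0.06, edgeR adjusted p = 3.47e-08). In siSlc39a2 cells PE raised Myoz2 by 0.65 (SE 0.06, edgeR adjusted p = 1.83e-06), and its interaction was -0.49 (SE 0.08, adjusted p = 0.00462). With PE in siNeg cells Nfatc2 fell by -0.89 (SE 0.09, edgeR adjusted p = 7.88e-06), though some Nfatc2 counts were not whole. With the knockdown and PE, 5 were higher and 4 lower. Rcan2, the nearest relative of Rcan1 on the list, was at 205 ± 10.7 CPM (SD, n = 3) in siNeg, 281 ± 13.3 after PE, 184 ± 7.54 after the knockdown and 190 ± 6.44 after both. Its interaction was -0.41 (SE 0.09, edgeR adjusted p = 0.0199), opposite in sign to the 0.44 of Rcan1. Thus PE raised Rcan2 in control cells (0.45, adjusted p = 9.17e-05), and the highest level of Rcan2 was in siNeg PE while that of Rcan1 was in siSlc39a2 PE.

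Of 20 genes of the cAMP branch, 11 were higher and 6 lower with PE in siNeg cells. The phosphodiesterase genes Pde4b (1.5), Pde4d (0.99) and Pde3b (0.87) had the largest changes (SE 0.11, 0.12 and 0.26, edgeR adjusted p = 7.1e-07, 3.87e-05 and 0.0135). Another phosphodiesterase gene, Pde4a, fell by -0.55 (SE 0.07, edgeR adjusted p = 8.59e-05) and was named after its values were seen. With the knockdown 5 were higher and 6 lower without PE, and 6 and 8 with PE. Adcy2, an adenylyl cyclase gene whose counts were not all whole, had the largest knockdown changes, 1.79 without PE and 2 with PE (SE 0.11 for both, edgeR adjusted p = 2.55e-08 and 1.15e-08). In siNeg it averaged 64.7 FPKM (47.9 CPM), against 90.5 FPKM (462 CPM) for Adcy5 and 72 FPKM (422 CPM) for Adcy6. After the knockdown Adcy2 averaged 259 FPKM, against 61.3 for Adcy5 and 50.6 for Adcy6. The knockdown lowered Adcy5 by -0.7 without PE and -1.03 with PE (SE 0.11 for both, edgeR adjusted p = 1.34e-04 and 5.2e-06). It lowered Adcy6 by -0.65 and -0.76 (SE 0.07 for both, adjusted p = 6.49e-06 and 1.39e-06). Some Adcy5 counts were not whole, and Adcy6 was named after its values were seen. Rapgef3, which encodes the cAMP-activated exchange factor Epac1, had an interaction of -1.12 (SE 0.20, edgeR adjusted p = 0.00793). The adenylyl cyclase gene Adcy1 had an interaction of -1.15 (SE 0.17, adjusted p = 0.00222), with 25.2 ± 1.45 CPM (SD, n = 3) in siNeg, 31 ± 5.77 after PE, 18.8 ± 1.28 after the knockdown and 10.4 ± 0.498 after both.

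**Figure D4:**
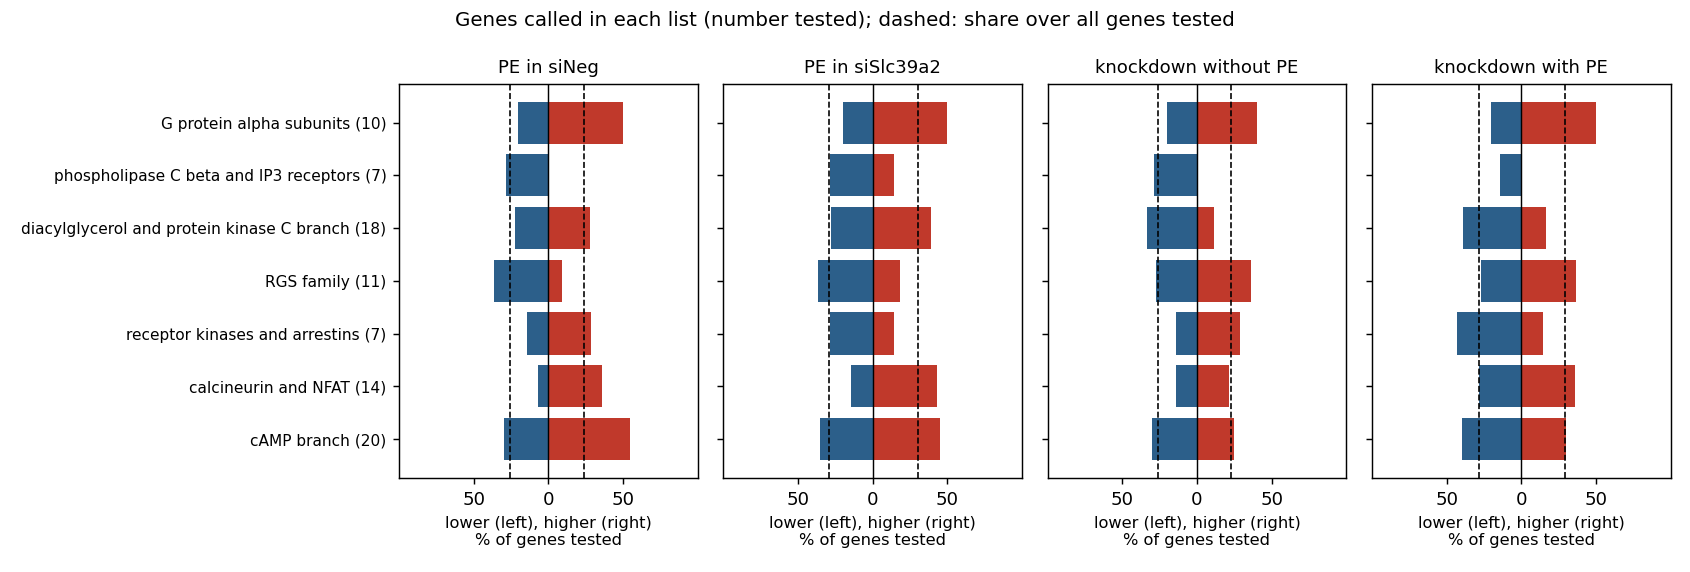
Percent of the tested genes of each of the lists described here that were lower (left) or higher (right) at an adjusted p under 0.05, in 4 comparisons, with the number tested beside the name. Dashed lines give the percent over all 13967 genes tested in each direction, 25.7% lower and 24% higher with PE in siNeg cells. Of the 20 genes of the cAMP branch, 11 are higher and 6 lower with PE in siNeg cells.

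As a description of like patterns, the log2 CPM of each member was correlated with 11748 genes over the 12 samples, which share group effects and depth. The closest genes to Adra1b were Hhatl, Cd74 and Dhrs7c (Pearson r = 0.997, 0.995 and 0.995), and to Adra1d they were Dglucy, Coq8a and Mavs (0.994, 0.993 and 0.993). To Rcan1 the closest were Creb3, Trim16 and Tnfrsf12a (0.998, 0.989 and 0.988), and to Rgs2 they were Ero1a, Ubxn8 and Slc1a3 (0.993, 0.992 and 0.992). To Adra1a they were Tanc2, Fam168a and Ildr2 (0.981, 0.98 and 0.98), to Adrb1 Msx2, Phactr1 and Reg3b (0.981, 0.98 and 0.979), and to Gnaq Pdp2, Rbm34 and Sos2 (0.983, 0.983 and 0.976). For Plcb1 the highest r was 0.799, with Zfp609, and for Rgs4 it was 0.858, with Clasrp. Counts of Cd74, Creb3, Fam168a, Sos2, Zfp609 and Clasrp were not whole in every sample, so some of their reads may be shared with other genes.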

How the data were processed

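NRVM RNA was sequenced in 4 groups of 3 samples. The authors deposited expected counts per gene, not normalized, and FPKM values for the same 18483 genes. The submitters' processing notes name HISAT, Bowtie2 and the build Rnor_6.0. The counting program, annotation and strand setting are not given in the sources used here. Of the expected counts, 78.7% were whole. No samples within a group were duplicates of each other (chi-square over its degrees of freedom 4.73 or more).

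Counts were rounded, filtered by filterByExpr, normalized by TMM and fitted with edgeR 4.0.16 (R 4.3.3) in a single 4-group model (8 residual degrees of freedom). Contrasts used edgeR's quasi-likelihood test, p-values were adjusted by Benjamini-Hochberg over 13967 genes, and genes were called at an adjusted p under 0.05. Counts were scaled by TMM-normalized library size to CPM. Standard errors were taken from the F statistic, and 95% intervals are not adjusted. The replicates are described as biological, but their source animals are not given, so p-values measure the spread between these samples. The study's normalizeBetweenArrays with limma was an alternative here (quantile method on log2(FPKM + 1), limma 3.58.1, with a filter of 0.5 FPKM in 3 samples), as was DESeq2 1.42.0. The fits were tested on simulated data.

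The 9 members and the lists were chosen with earlier results of these data known. Other genes named are up to 3 of each list with the largest changes among those called, and the 3 genes most correlated with each member whose average log2 CPM (prior count 2) exceeded 1. Some listed genes that this rule names are not reported here.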

Additional observations from a re-analysis of the deposited data

Results flagged for a closer look

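The effect of the knockdown differed with and without PE, by the interaction test over all genes, for 3 of the 9 members. Of all genes tested, 3.61% passed this test. Adrb1 had an interaction of -0.72 on the log2 scale. Adra1b had -0.68, and Rcan1 had 0.44. Of the 12 fits that left out a sample, Adrb1 passed in 12, Rcan1 in 8 and Adra1b in 4. For Adrb1 the knockdown gave 0.09 without PE and -0.63 with PE, and PE gave -0.29 in siNeg and -1.01 in siSlc39a2 cells. Of 8 smooth muscle and pericyte markers, 4 also had an interaction, all higher, and of 8 fibroblast markers 0 had one. The part of these cells in the members' values was not tested.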

How the results depend on the processing

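With the fold threshold added, the members called went from 7 to 3 with PE in siNeg cells, from 5 to 0 with the knockdown without PE, from 7 to 2 with the knockdown with PE and from 3 to 0 for the interaction. The share of all genes called went from 49.7% to 6.6%, 49.2% to 9.78%, 57.3% to 11.6% and 3.61% to 0.988% in the same order. With each sample left out in turn, the counts called ranged from 6 to 7, 7 to 7, 3 to 5 and 7 to 7 for PE in siNeg, PE in siSlc39a2, the knockdown without PE and the knockdown with PE, and from 1 to 3 for the interaction. The count was 3 without siSlc39a2 replicate 3 for the knockdown without PE, and 1 for the interaction without siNeg PE replicate 2 or siSlc39a2 PE replicate 2. Of 341 refitted values of single members under the other alternatives, 332 kept their side of the threshold, 5 lost the call and 4 gained one, and no called value changed sign. Gnaq with the knockdown without PE was 0.25 (adjusted p = 0.0645) with limma without a filter. Plcb1 did not pass the FPKM filter and has a limma value only without it. All-gene calls for the interaction were 504 with edgeR, 1053 when the replicate block was added, 825 under DESeq2 and 777 to 890 over the limma fits.

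Correlations of the deviations of same-numbered samples ran from 0.0535 to 0.315 for PE in siNeg, -0.0904 to 0.221 for PE in siSlc39a2, -0.0107 to 0.025 for the knockdown without PE and 0.00387 to 0.32 with PE. They did not exceed 0.1 in every pair of any comparison, so the numbers were not taken to pair the samples. Of 6 samples, 4, 2, 2 and 4 correlated best with their own number, so some shared variation is not excluded. For Adra1b and Adra1d, replicate 1 had the highest CPM and replicate 3 the lowest in each of the 4 groups. With the replicate block, 7, 7, 5 and 7 members passed in the 4 comparisons and 4 in the interaction, where Adra1a gained a call (0.55, adjusted p = 0.0195 from edgeR). For the knockdown without PE the block lowered the SE of Adra1b from 0.12 to 0.06 and that of Adra1d from 0.1 to 0.07. Their estimates stayed at -0.39 and -0.36 (edgeR adjusted p = 1.95e-04 and 8.68e-04 with the block). The fits that left out a sample had no block. For PE in siNeg cells it took the SE of Plcb1 from 0.27 to 0.28 and that of Rgs4 from 0.16 to 0.17. Plcb1, with 17 to 35 counts, is the member that depth limits most. Counts and FPKM rest on gene models, so a gene's level also depends on the annotation.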
